A study of Mus musculus with 13 samples.

Results

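Fetuins and alpha-1 antitrypsins are glycoproteins that hepatocytes secrete into plasma. Their genes here were 7 of the 53392 in the count table of mouse liver: the fetuins Ahsg and Fetub, and the alpha-1 antitrypsin paralogs Serpina1a, Serpina1b, Serpina1c, Serpina1d and Serpina1e. Ahsg and Serpina1a were picked on their lower counts in livers with induced ASAH1. Fetub was added as the relative of Ahsg, and the other Serpina1 paralogs because they share sequence with Serpina1a, which is also why the paralogs were summed. The values of Ahsg, of the paralogs and of their sum in comparisons with the induced livers are therefore descriptions with no test. All 7 genes passed edgeR's filter on low counts, as did 14317 genes in all.

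The study asked how lowering ceramide in hepatocytes acts on alcohol-fed mice, using a transgene for acid ceramidase (ASAH1). RNaseq of whole liver was done in 13 female mice, 8 to 14 weeks old, on a Lieber-DeCarli liquid diet with 28% of calories from ethanol (Etoh) for 4 weeks. The groups were 4 ASAH− Etoh-Dox mice, 5 ASAH+ Etoh-Dox mice and 4 ASAH+ Etoh mice. The design text gives 4 mice per group, and all 5 libraries of the ASAH+ Etoh-Dox group were used. Albumin-Cre and Rosa26-loxP-stop-loxP-rtTA were present on both alleles in every group, and TRE-ASAH1 distinguished ASAH+ from ASAH− littermates. Doxycycline (Dox, 200 mg/l) went to both Etoh-Dox groups and switches on ASAH1 only where rtTA is expressed, which Albumin-Cre limits to hepatocytes. The ASAH+ Etoh mice had the transgene but no Dox, so ASAH+ Etoh-Dox livers are called induced. Sample titles of the ASAH+ mice give the opposite Dox state to the descriptions and induction labels, which were used. The level of Asah1 went with these groups: it was 49.3 ± 6.77 CPM (counts scaled to the library total with TMM factors, mean ± SD, n = 4) in ASAH− Etoh-Dox, 12745 ± 2793 (n = 5) in induced and 46.5 ± 1.70 (n = 4) in ASAH+ Etoh livers.

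Fetuin-A, the product of Ahsg, binds calcium phosphate in plasma, keeps it from precipitating, and can bind the insulin receptor and inhibit its kinase. Fetuin-B, the product of Fetub, inhibits ovastacin, a protease of the egg, and both fetuins belong to the cystatin superfamily. Alpha-1 antitrypsin is a serpin: a protease such as neutrophil elastase cleaves its exposed reactive centre loop and is trapped, and the letters of that loop decide which proteases are caught. Mice carry several Serpina1 genes where humans carry a single SERPINA1.

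In GENCODE M21 on GRCm38, Ahsg (ENSMUSG00000022868, chr16:22891277-22899449) and Fetub (ENSMUSG00000022871, chr16:22918334-22939778) lay on the plus strand 18.9 kb apart, followed by Hrg and Kng2, which also encode cystatin superfamily proteins. The Serpina1 paralogs lay on the minus strand of chromosome 12 within 231 kb, in the order Serpina1b, Serpina1d, Serpina1a, Serpina1c and Serpina1e by rising coordinate, with pseudogenes between them. Each paralog had 1239 coding bases in 5 exons. Pairs of paralogs were identical at 96.3% to 98.5% of these bases, Serpina1a and Serpina1c being the closest pair with 19 differences. Over all 5 paralogs, 86 positions (6.94%) differed.

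The most variable 60 bases were coding positions 1101 to 1160 in exon 5, which encodes the reactive centre loop. They are shown because reads from here tell the paralogs apart and because the loop decides which proteases are caught. They hold 18 of the 86 coding positions that differ, and the proteins themselves were not compared. The stretches are on the minus strand of GRCm38 at chr12:103853757-103853816 for Serpina1a, chr12:103728324-103728383 for Serpina1b, chr12:103895094-103895153 for Serpina1c, chr12:103763762-103763821 for Serpina1d and chr12:103947100-103947159 for Serpina1e. Capitals mark the 18 positions at which the paralogs differ.
Serpina1a: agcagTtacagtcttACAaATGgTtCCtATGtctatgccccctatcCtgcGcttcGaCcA
Serpina1b: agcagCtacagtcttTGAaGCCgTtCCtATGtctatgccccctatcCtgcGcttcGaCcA
Serpina1c: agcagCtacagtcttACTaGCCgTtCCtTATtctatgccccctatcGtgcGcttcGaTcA
Serpina1d: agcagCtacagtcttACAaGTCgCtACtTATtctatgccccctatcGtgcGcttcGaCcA
Serpina1e: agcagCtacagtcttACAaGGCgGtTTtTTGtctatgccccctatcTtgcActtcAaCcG

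The paralogs differ in how well short reads separate them, with Serpina1a and Serpina1c the least separable. Of all 100-base windows of each main transcript, the length of the reads, the share found in no other gene was 39.0% for Serpina1a, 79.4% for Serpina1b, 41.5% for Serpina1c, 70.7% for Serpina1d and 85.2% for Serpina1e. For Ahsg and Fetub it was 100%. The authors' mapping divides reads that match several paralogs by estimated abundance, so the split among Serpina1a to Serpina1e is uncertain and their sum is not affected by that split. The pseudogene Gm8893, which also shares sequence with them, had 223 to 750 counts per mouse, at most 0.167% of the Serpina1 counts. Gm30505, antisense to Ahsg, had 14 to 56 counts.

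The promoters were compared because several members stood lower in the same livers. RefSeq promoters on GRCm38.p6 were found for all 7 genes, 8 in total since Fetub has a pair of starts. Across the 5 Serpina1 paralogs, a stretch of 140 bases placed around a match to a searched motif was the same at 126 positions. Pairs of paralogs had 3 to 9 differences. The motifs given here were searched on both strands in the 32851 RefSeq promoters of 300 bases (250 before and 50 after the start). The 250 bases before the start are given for Ahsg at chr16:22891765-22892014 and for the upstream start of Fetub at chr16:22918132-22918381, both on the plus strand of GRCm38.p6. Capitals mark matches to the C/EBP motif TTNCNNAA on either strand and, in Fetub, also TATAAA, the TATA box.
Ahsg: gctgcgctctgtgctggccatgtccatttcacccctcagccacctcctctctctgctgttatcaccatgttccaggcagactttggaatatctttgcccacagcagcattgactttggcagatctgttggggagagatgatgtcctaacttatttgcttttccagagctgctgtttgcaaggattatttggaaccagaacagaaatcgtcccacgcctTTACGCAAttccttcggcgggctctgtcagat
Fetub: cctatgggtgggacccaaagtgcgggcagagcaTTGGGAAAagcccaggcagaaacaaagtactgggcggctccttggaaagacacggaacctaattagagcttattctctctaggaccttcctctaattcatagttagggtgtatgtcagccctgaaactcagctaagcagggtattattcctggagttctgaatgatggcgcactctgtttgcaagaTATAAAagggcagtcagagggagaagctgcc

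In Ahsg the C/EBP match TTACGCAA began 32 bases before the start, and in Fetub TATAAA began 31 bases before it. TTNCNNAA was in 7 of the 8 member promoters and in 40.7% of all promoters. TATAAA was in 1 of the 8 and in 13.6% of all. The HNF4 motif CAAAGTCCA was in 0 of the 8 and in 0.475% of all. A further motif that was searched is not named here. It was in 5 of the 8, those of the Serpina1 paralogs, and in 7.1% of all. The 8 promoters are not independent, since 5 are of paralogs that share sequence and Fetub has a pair. Nothing is therefore read from the counts of members beside the shares of all promoters. In the stretches printed no match overlapped another motif. These are letters in a window and say nothing of binding in these livers.

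Between 17819486 and 35358711 counts per mouse fell on genes, with a median of 24454043. The members took 2.46% to 3.12% of a mouse's counts. By mean CPM Ahsg ranked 6 of the 14317 genes tested, Serpina1b 18, Serpina1c 29, Serpina1a 33 and Serpina1d 34, whereas Fetub ranked 327 and Serpina1e 4495. Per length, in CPM per kb of the main transcript over 13 mice (mean ± SD), Ahsg was highest at 6348 ± 905.7. Serpina1b (3516 ± 342.3), Serpina1c (3424 ± 366), Serpina1a (2982 ± 281) and Serpina1d (2672 ± 265) came next, and the range over mice of each overlapped that of the next. Fetub was at 233.9 ± 38.9 CPM per kb and Serpina1e at 15.2 ± 7.92 CPM per kb, each below every mouse of the genes above it.

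**Figure D1:**
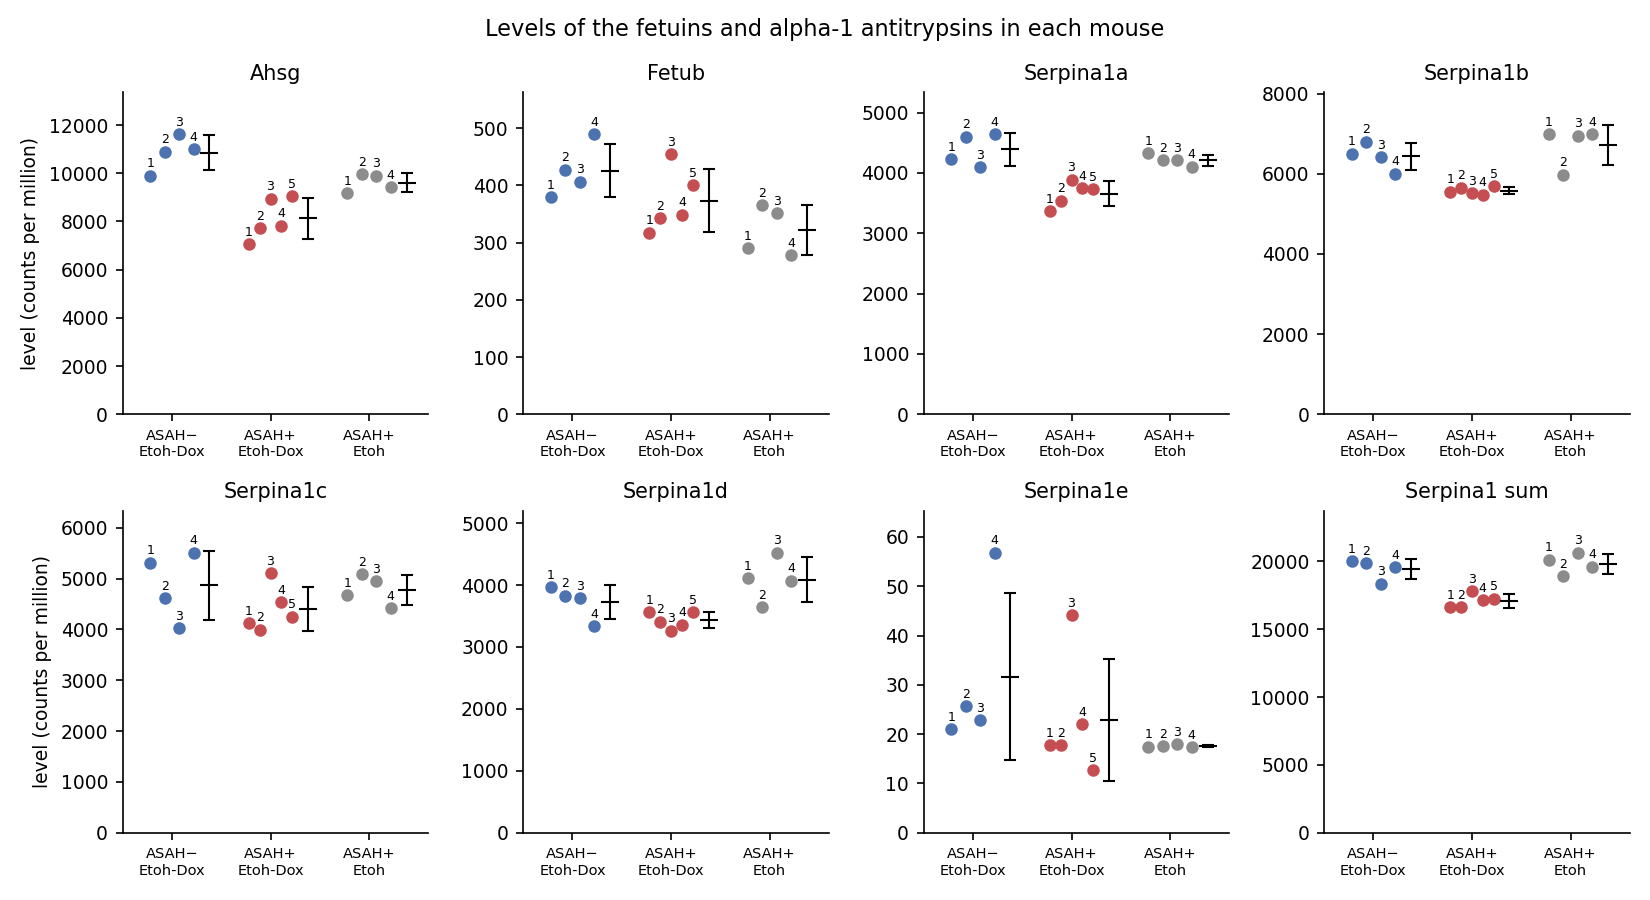
Level of each member and of the Serpina1 sum in CPM (vertical axis, from 0) in every mouse by group; the small figures are replicate numbers, bars are the mean and SD of 4, 5 and 4 mice. Ahsg, Serpina1a, Serpina1b and the sum are lowest in the ASAH+ Etoh-Dox mice with no overlap, whereas Fetub overlaps between those mice and each other group.

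Livers with induced ASAH1 held less Ahsg, Serpina1a and Serpina1b RNA than ASAH− Etoh-Dox livers, the comparison of transgene carriers with littermates on the same diet and drug. Ahsg in the 4 ASAH− Etoh-Dox mice, in the order of replicates, was at 9895, 10889, 11627 and 11008 CPM. In the 5 induced mice it was at 7066, 7726, 8944, 7828 and 9053 CPM. Every induced mouse was below every ASAH− mouse, with replicate 5 of the induced and replicate 1 of the ASAH− group closest together. The log2 fold change of Ahsg was −0.42 (SE 0.0861), or 0.748 times the ASAH− level.

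Serpina1a was at 4232, 4599.9, 4093 and 4646 CPM in the ASAH− Etoh-Dox mice. In the induced mice it was at 3370.01, 3544, 3892, 3753 and 3733 CPM. The groups did not overlap, and the log2 fold change was −0.26 (SE 0.0706). Serpina1b likewise had no overlap, with 6432 ± 329 CPM (SD, n = 4) in ASAH− against 5579 ± 90.4 CPM (n = 5) in induced mice, a log2 fold change of −0.21 (SE 0.0711). Serpina1c (−0.14, SE 0.103) and Serpina1d (−0.12, SE 0.0795) were also lower on average, but their mice overlapped. Without ASAH− replicate 1, 3 or 4 in turn, Serpina1c was at −0.09, −0.23 and −0.08.

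Added together, the paralogs gave 20031, 19857, 18356 and 19558 CPM in the ASAH− Etoh-Dox mice. The sum in the induced mice was 16618, 16615, 17820.2, 17151 and 17245 CPM. Again every induced mouse was lower, and the log2 fold change of the sum was −0.19 (SE 0.0650), or 0.879 times the ASAH− level. How reads were divided among paralogs does not enter the sum. In whole liver, fewer hepatocytes and less RNA per hepatocyte cannot be told apart.

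Serpina1e, the paralog with the fewest counts, was at 21.1, 25.7, 22.8 and 56.8 CPM in ASAH− Etoh-Dox and at 17.8, 17.7, 44.1, 22.0 and 12.7 CPM in induced mice. A single high mouse stood out in each group, replicate 4 of the ASAH− and replicate 3 of the induced mice. The log2 fold change of −0.47 (SE 0.358) was −0.02 without that ASAH− mouse, −0.85 without that induced mouse and −0.31 without induced replicate 5.

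Of the 7 members, 3 (Ahsg, Serpina1a and Serpina1b) were lower in every induced mouse than in every ASAH− Etoh-Dox mouse, as were 0.447% of all genes tested. The choice of members used this comparison, so nothing is read from that count. Across all genes, edgeR's quasi-likelihood test, adjusted by the Benjamini-Hochberg method, called 2 genes at an adjusted p under 0.1 (0.0140%), Asah1 (log2 fold change 8.01) and Sod1 (0.69), both higher in all 5 induced mice. At an unadjusted p under 0.05, 1.57% of genes were lower and 1.29% higher. DESeq2 on all 13 mice called 12 genes and limma-voom 2.

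Against ASAH+ Etoh livers, which carry the same transgene without Dox, the induced livers again held less Ahsg, Serpina1a and Serpina1b RNA. In the ASAH+ Etoh mice Ahsg was at 9161, 9967, 9899.8 and 9409.6 CPM. All 4 values lay above the highest induced mouse, which was at 9053 CPM, but by a small margin for replicate 1. The log2 fold change of Ahsg was −0.24 (SE 0.0862), or 0.845 times the ASAH+ Etoh level.

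Serpina1a in the ASAH+ Etoh mice was at 4329, 4208, 4211 and 4105 CPM, above all induced mice, with a log2 fold change of −0.20 (SE 0.0706). Serpina1b was at 6991, 5974, 6951 and 6989 CPM in these mice. Replicate 2 was far below the other 3 yet above every induced mouse, and the log2 fold change was −0.27 (SE 0.0711). Serpina1d, at 4087 ± 359 CPM (SD, n = 4) in ASAH+ Etoh against 3430.3 ± 128 CPM (n = 5) in induced mice, also had no overlap (log2 fold change −0.25, SE 0.0794). Serpina1c overlapped (−0.12, SE 0.103) and was at −0.19 without induced replicate 3.

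The Serpina1 sum was 20117, 18932, 20650.4 and 19601 CPM in the ASAH+ Etoh mice, all above the induced mice. Its log2 fold change was −0.21 (SE 0.0650), or 0.862 times the ASAH+ Etoh level. Serpina1e in ASAH+ Etoh mice was at 17.5, 17.5, 18.0 and 17.4 CPM, within the range of the induced mice. Its log2 fold change of 0.38 (SE 0.366) was −0.01 without induced replicate 3.

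Here 4 of the 7 members (Ahsg, Serpina1a, Serpina1b and Serpina1d) were lower in every induced mouse, against 1.49% of all genes tested. The choice of members used the induced livers here too, so nothing is read from the count. The same test called 2 genes (0.0140%), Asah1 (8.10) and Sod1 (1.02), both higher in all induced mice. At an unadjusted p under 0.05, 3.24% of genes were lower and 4.04% higher, and DESeq2 on all 13 mice called 98 genes and limma-voom 2. Both comparisons use the same 5 induced mice, so their results are not independent of each other.

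**Figure D2:**
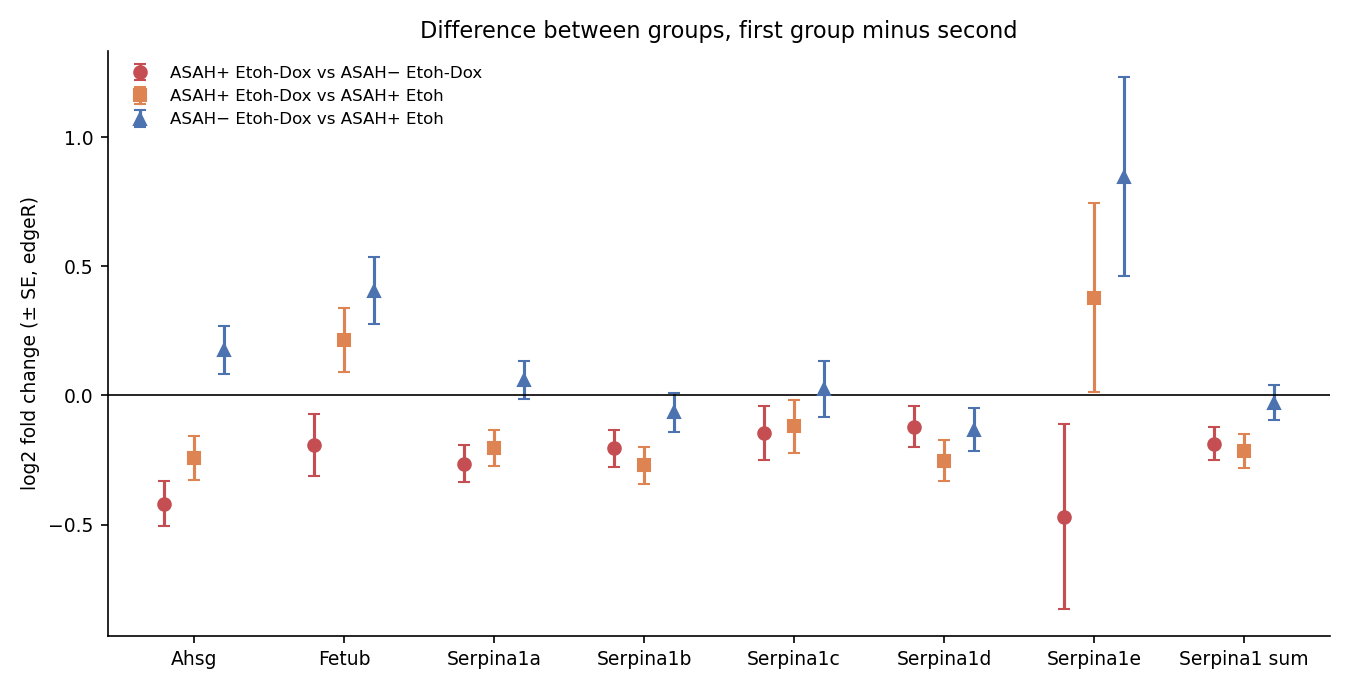
Log2 fold change of each member and of the Serpina1 sum (vertical axis, points with SE from edgeR) in 3 comparisons, the first group named minus the other. Ahsg, Serpina1a, Serpina1b, Serpina1c, Serpina1d and the sum are below 0 in both comparisons of induced mice, whereas Fetub is at −0.19 in the first and at 0.21 in the other.

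Fetub, the neighbour of Ahsg, was not chosen for its level and was tested in each comparison. In the ASAH− Etoh-Dox mice it was at 379.7, 428, 407 and 489.9 CPM. In the induced mice it was at 318, 343, 455, 349 and 401 CPM. In the ASAH+ Etoh mice it was at 290.2, 366, 352 and 278 CPM. Induced livers thus lay between the other groups and overlapped both.

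Between induced and ASAH− Etoh-Dox mice the log2 fold change of Fetub was −0.19 (SE 0.122; edgeR adjusted p = 0.9996; exact two-sided permutation p = 0.151). It was lower in 16 of 20 pairs of mice and at −0.12 without ASAH− replicate 4. Between induced and ASAH+ Etoh mice it was 0.21 (SE 0.122; edgeR adjusted p = 0.727; exact permutation p = 0.175), higher in 14 of 20 pairs and at 0.12 without induced replicate 3. Neither passed the threshold, which does not show that the levels were alike. The smallest p an exact test of 5 against 4 mice can give is 0.00794.

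The remaining comparison, ASAH− Etoh-Dox with ASAH+ Etoh, differs in both genotype and Dox and has ASAH1 induced in neither group. The choice of members was not made on this difference, but both groups are the other side of the comparisons above. Values of these mice may thus have entered the choice. The p-values here for Ahsg, the paralogs and their sum are not free of it. Fetub was higher in all 4 ASAH− Etoh-Dox mice than in any ASAH+ Etoh mouse, with a log2 fold change of 0.41 (SE 0.129), or 1.33 times. Its edgeR p was 0.00693 unadjusted and 0.389 adjusted over all genes by Benjamini-Hochberg. The exact permutation p was 0.0286, the smallest that 4 against 4 mice allow.

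Serpina1e was also higher in all 4 ASAH− Etoh-Dox mice (log2 fold change 0.85, SE 0.385; edgeR adjusted p = 0.537; exact permutation p = 0.0286). That value was 0.40 without ASAH− replicate 4. Ahsg was at 0.18 (SE 0.0911; edgeR adjusted p = 0.587; exact permutation p = 0.0857), higher in 14 of 16 pairs of mice. The Serpina1 sum was at −0.03 (SE 0.0687; edgeR adjusted p = 0.941; exact permutation p = 0.486), and between −0.06 without ASAH− replicate 2 and −0.00 without ASAH− replicate 3. The other 4 paralogs were between −0.13 for Serpina1d and 0.06 for Serpina1a, with edgeR adjusted p from 0.675 to 0.970. Serpina1d was at −0.08 without ASAH− replicate 4, and Serpina1a at 0.03 without ASAH+ Etoh replicate 4 and 0.09 without ASAH− replicate 3.

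In this comparison 0 of the 7 members passed an adjusted p of 0.1 by edgeR, DESeq2 or limma-voom, beside 0.0140% of all genes (mt-Co2 and mt-Co3, encoded in mitochondria, both higher in ASAH− Etoh-Dox mice). At an unadjusted p under 0.05 by edgeR, 2 members (Fetub and Serpina1e) were higher, beside 5.08% of all genes, and 0 were lower, beside 4.10%. The same 2 were higher in every ASAH− Etoh-Dox mouse, beside 3.09% of all genes. DESeq2 on all 13 mice called 149 genes here and limma-voom 1.

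Shares of the paralogs within the Serpina1 counts overlapped between the induced mice and each other group. Serpina1b held the largest share, with 33.1 ± 1.91% (SD, n = 4) in ASAH− Etoh-Dox, 32.7 ± 1.22% (n = 5) in induced and 33.9 ± 1.77% (n = 4) in ASAH+ Etoh mice. Serpina1c was at 25.0 ± 2.88%, 25.7 ± 1.86% and 24.1 ± 1.90% in the same order. Serpina1a was at 22.6 ± 1.14%, 21.4 ± 0.661% and 21.3 ± 0.787%. For these 3 paralogs the mice of any pair of groups overlapped.

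Serpina1d held 19.2 ± 1.52%, 20.1 ± 1.18% and 20.6 ± 1.09%, and Serpina1e 0.162 ± 0.0862%, 0.133 ± 0.0671% and 0.0888 ± 0.00261%. Shares were tested only between ASAH− Etoh-Dox and ASAH+ Etoh mice, with the same limit from the choice of members. The 5 exact permutation tests gave p = 0.114, 0.543, 0.743, 0.229 and 0.0286 for Serpina1a to Serpina1e. The last is the smallest these groups allow and was not adjusted. Shares of a mouse add to 100%, so they are not independent.

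**Figure D3:**
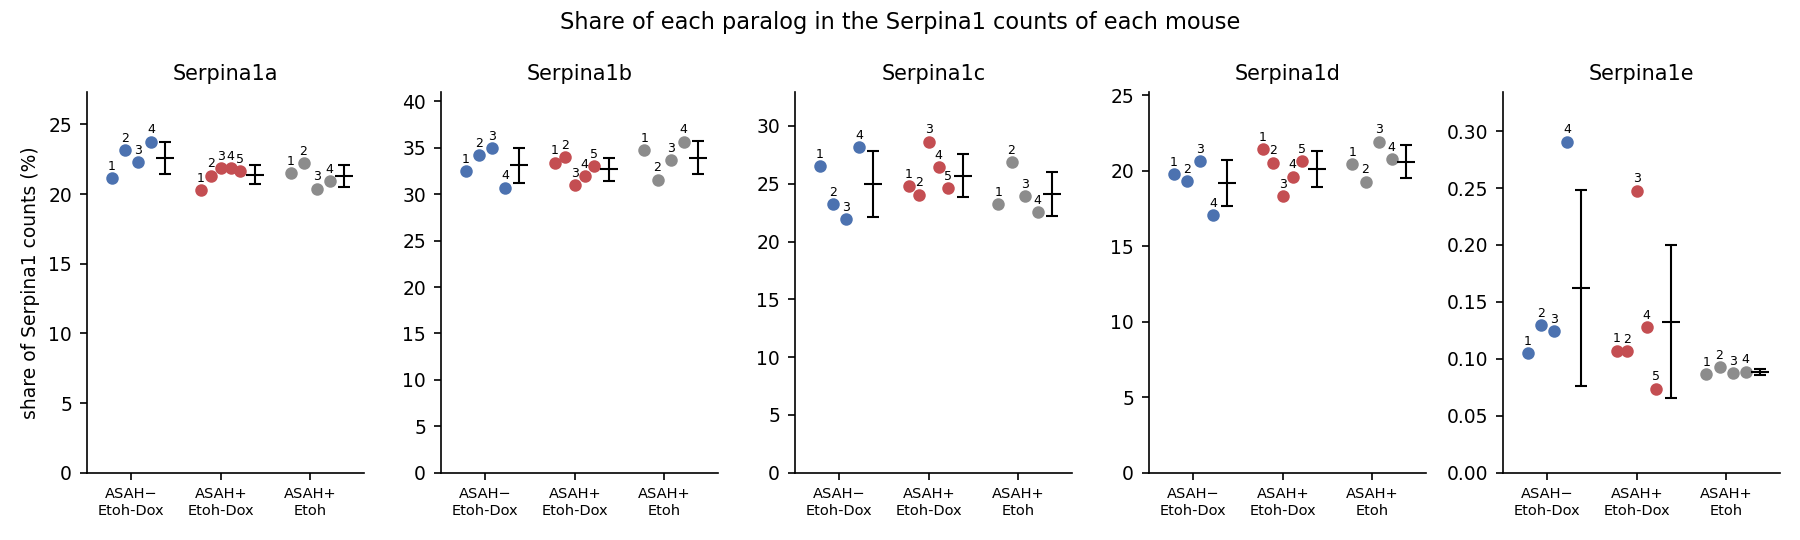
Share of each paralog in the Serpina1 counts of a mouse in percent (vertical axis, from 0, scaled per panel); small figures are replicate numbers and bars the mean and SD of 4, 5 and 4 mice. ASAH− Etoh-Dox replicate 4 and ASAH+ Etoh-Dox replicate 3 have the highest Serpina1e share, at 0.291% and 0.248%, and the lowest Serpina1d share, at 17.1% and 18.3%.

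Within each group the mouse with the most Fetub was also at the extreme for 4 of the 5 paralog shares, a pattern noted after the values were seen. Replicate 4 of ASAH− Etoh-Dox, replicate 3 of the induced and replicate 2 of ASAH+ Etoh mice each had their group's highest Fetub, highest Serpina1c and Serpina1e shares, and lowest Serpina1b and Serpina1d shares. Their Serpina1c shares were 28.2%, 28.6% and 26.9%. Their Serpina1b shares were 30.7%, 30.95% and 31.6%. The Serpina1a share was highest in the same mouse in ASAH− Etoh-Dox and in ASAH+ Etoh, but in the induced group it was highest in replicate 4, at 21.9%, and replicate 1 stood farthest apart, at 20.3%. No test was made of this pattern.

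Across the 13 mice the members did not move as a block. Correlations of log2 CPM are given with the value within groups, since groups differ. Serpina1b and Serpina1d had r = 0.89 (rho 0.87; within groups 0.80). Ahsg and Serpina1a had r = 0.86 (rho 0.75, within groups 0.47). Both were picked on lower counts in induced livers, which ties them across groups, so nothing is read from their r over all mice. The same goes for Ahsg and the Serpina1 sum, which includes Serpina1a.

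For Ahsg and the Serpina1 sum r was 0.71 (rho 0.60) and 0.10 within groups. Ahsg and its neighbour Fetub had r = 0.49 (rho 0.53) and 0.77 within groups. Serpina1b and Serpina1c had 0.16 (rho 0.18) and −0.44 within groups, and Fetub and Serpina1e 0.71 (rho 0.72) and 0.58. Serpina1a and Serpina1c, the least separable paralogs, had 0.65 (rho 0.70) and 0.63 within groups. Reads divided wrongly among paralogs could move their values together or apart, and this was not tested.

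**Figure D4:**
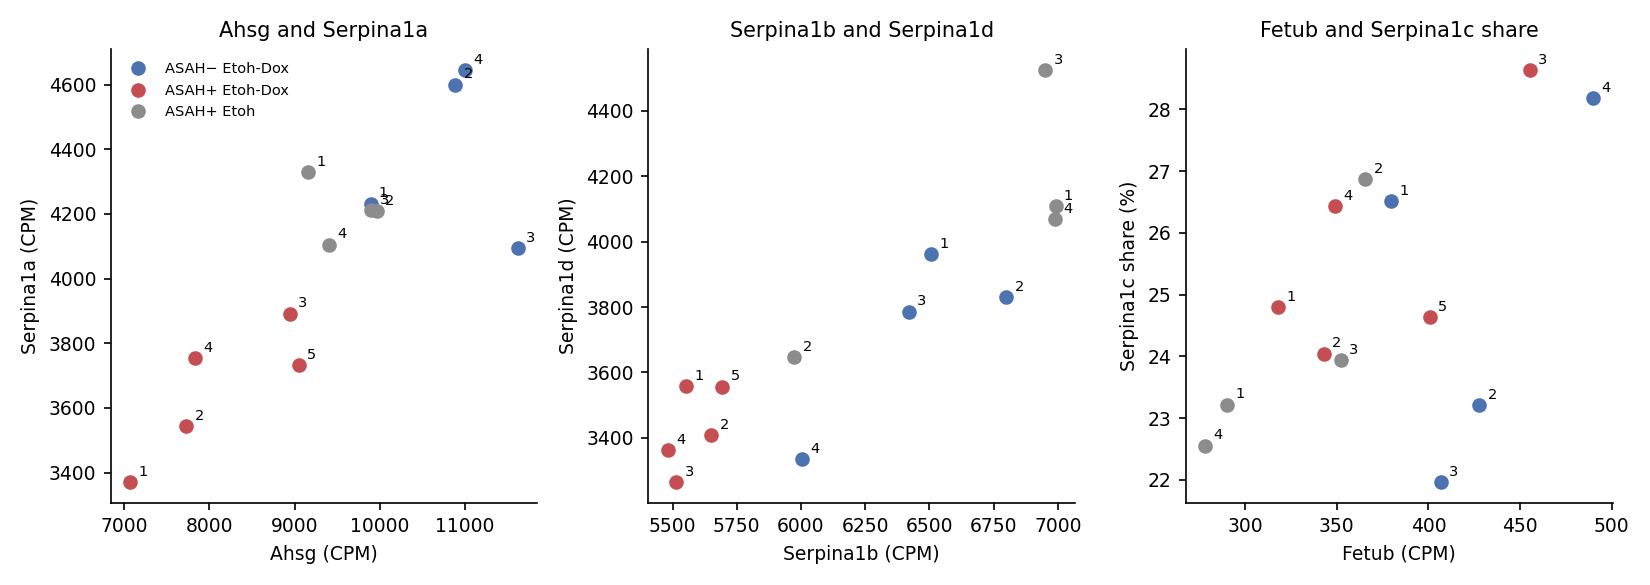
Each point is a mouse, coloured by group and labelled by replicate: Ahsg against Serpina1a (CPM), Serpina1b against Serpina1d (CPM), and Fetub (CPM) against the share of Serpina1c in the Serpina1 counts (%). The ASAH+ Etoh-Dox mice sit lowest for both Ahsg and Serpina1a, and ASAH− Etoh-Dox replicate 4 and ASAH+ Etoh-Dox replicate 3 have the most Fetub and the largest Serpina1c shares.

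Among 7270 genes with a mean over 10 CPM, the gene most like Fetub over the 13 mice was Apoa1, which encodes the main apolipoprotein of HDL, with r = 0.91 (rho 0.91; within groups 0.81; 0.82 without the 2 mice farthest from the median). Rwdd1 (0.88, within groups 0.91), Ptrh2 (0.86, 0.80), Cyp2c40 (0.86, 0.87) and Rps12l1 (0.85, 0.70) followed. Most like the Serpina1 sum was Kng1, which encodes kininogen, a precursor of bradykinin and a cystatin superfamily member, with r = 0.88 (rho 0.79; within groups 0.66; 0.81 without the 2 mice farthest from the median).

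Next after Kng1 were Sfxn2 (0.85, within groups 0.35), Cldnd1 (0.83, 0.33), Mat1a (0.80, 0.25) and Cavin2 (0.79, 0.27). Values within groups were lower for each, and the choice of Serpina1a, part of the sum, bears on the difference between groups. Most like Ahsg were 2810004N23Rik (r = 0.82, rho 0.74, within groups 0.67), Atxn10 (0.79, within groups 0.69), Clns1a (0.77, 0.55), AC160336.1 (0.74, 0.54) and Notum (0.73, 0.58). Without the 2 mice farthest from the median AC160336.1 was at 0.44. These are the highest of many correlations over 13 mice and carry no p.

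The relatives of the members were counted as lists. For all lists, the background is the share of all genes tested at an unadjusted p under 0.05 by edgeR. In induced against ASAH− Etoh-Dox mice 1.57% were lower and 1.29% higher. Against ASAH+ Etoh mice, 3.24% were lower and 4.04% higher in induced mice, and 4.10% lower and 5.08% higher in ASAH− Etoh-Dox mice. Of 5 tested genes of other cystatin superfamily members, 1 was lower and 0 were higher in induced than in ASAH− Etoh-Dox mice at an unadjusted p under 0.05 by edgeR. This was Hrg, histidine-rich glycoprotein, a plasma protein encoded beside Fetub (log2 fold change −0.24, SE 0.0927). The median of the list was −0.12 against 0.00 for all genes. Against ASAH+ Etoh 3 of the 5 were lower, Hrg (−0.33), Kng2 (−0.26) and Kng1 (−0.24), with a list median of −0.24 against 0.01 for all genes. DESeq2 on all 13 mice, whose calls over all genes are given above, called these same 3 at an adjusted p under 0.1. edgeR and limma-voom called 0 of them. Between ASAH− Etoh-Dox and ASAH+ Etoh mice 0 of the 5 passed an unadjusted p of 0.05 by edgeR, and 0 an adjusted p by edgeR, DESeq2 or limma-voom.

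Of 11 tested other clade A serpins, Serpina3n, an acute phase serpin, was lower in induced mice than in ASAH− Etoh-Dox mice (log2 fold change −0.29, SE 0.115) and than in ASAH+ Etoh mice (−0.55, SE 0.114), where DESeq2 on all 13 mice called it and edgeR and limma-voom did not. At an unadjusted p under 0.05 it was also lower in ASAH− Etoh-Dox than in ASAH+ Etoh mice (−0.27, SE 0.121), with ASAH1 induced in neither group. Serpina12, which encodes vaspin, was higher against ASAH+ Etoh in induced mice (1.66, SE 0.440) and in ASAH− Etoh-Dox mice (1.10, SE 0.461). The list medians were −0.11, −0.08 and 0.07 in the 3 comparisons. Of 12 tested serpins of other clades, Serpinh1, the collagen chaperone, was lower in induced than in ASAH− Etoh-Dox mice (−0.52, SE 0.241), with list medians of −0.06, −0.06 and 0.04.

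Of the proteases that alpha-1 antitrypsin and fetuin-B inhibit, 3 of 9 were tested and 0 passed an unadjusted p of 0.05 by edgeR in any comparison or an adjusted p by edgeR, DESeq2 or limma-voom. Elane, which encodes neutrophil elastase, and Astl, which encodes ovastacin, were among those without enough counts. Of 12 fetuin-A partners, Bmp2 was lower in induced than in ASAH+ Etoh mice (−0.49, SE 0.160). Insr, the insulin receptor gene, was lower in ASAH− Etoh-Dox than in ASAH+ Etoh mice (−0.26, SE 0.103), as was Bmp2 (−0.36), while Anxa2 was higher (0.65). In induced against ASAH− Etoh-Dox mice 0 of the 12 passed an unadjusted p of 0.05 by edgeR, or an adjusted p by edgeR, DESeq2 or limma-voom.

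Secreted glycoproteins such as these are folded and exported through the endoplasmic reticulum. Over all genes tested, 1.29% were higher and 1.57% lower in induced than in ASAH− Etoh-Dox mice at an unadjusted p under 0.05 by edgeR. Of 30 genes for folding and export, 5 were higher and 0 lower at that threshold, with a median of 0.10. They were Derl3 (4.37, SE 1.06; 0.648 to 25.6 CPM among induced mice and at most 1.12 CPM in ASAH− Etoh-Dox mice) and Sel1l (0.34, SE 0.0920), of the pathway that removes misfolded proteins, and Calr (0.42), Pdia3 (0.43) and Canx (0.24), which fold glycoproteins. Against ASAH+ Etoh mice, Derl3 was higher (4.19, SE 1.06) and Sec23a, a coat protein of export vesicles, lower (−0.29, SE 0.101). DESeq2 on all 13 mice called Derl3 in the first comparison, and edgeR and limma-voom called 0 of the 30. Between ASAH− Etoh-Dox and ASAH+ Etoh mice 3 of the 30 (Edem3, Sel1l and Sec23a) were lower at an unadjusted p under 0.05 by edgeR.

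Genes of HNF4 and of the main C/EBP factors were not called by edgeR. In induced against ASAH− Etoh-Dox mice the log2 fold change was 0.11 (SE 0.154) for Hnf4a, −0.05 (SE 0.117) for Cebpa and −0.17 (SE 0.266) for Cebpb. Against ASAH+ Etoh mice these were −0.07, −0.18 and 0.19. Of 27 tested liver transcription factors, Nr5a2 was higher in induced than in ASAH− Etoh-Dox mice (0.15, SE 0.0699). Prox1 (−0.57), Onecut2 (−0.31) and Stat3 (−0.38) were lower in induced than in ASAH+ Etoh mice. Nr5a2 and Onecut2 were lower in ASAH− Etoh-Dox than in ASAH+ Etoh mice. These are at an unadjusted p under 0.05 by edgeR. At an adjusted p under 0.1, DESeq2 on all 13 mice called Prox1 against ASAH+ Etoh in induced mice and Nr5a2 in ASAH− Etoh-Dox mice, and edgeR and limma-voom called 0 of the 27.

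Lists of other plasma proteins, acute phase proteins and hepatokines give the setting, and not all of their genes encode secreted proteins. Of 27 other plasma proteins, Apoc3 (−0.26) and Apoa1 (−0.28) were lower in induced than in ASAH− Etoh-Dox mice, and Apoc3 (−0.22) and Azgp1 (−0.15) lower than in ASAH+ Etoh mice. In ASAH− Etoh-Dox against ASAH+ Etoh mice Apoa1 was higher (0.54, SE 0.131) and Cfb lower (−0.19). The list medians were −0.06, −0.07 and −0.02. DESeq2 called Apoc3 in induced and Apoa1 in ASAH− Etoh-Dox mice against ASAH+ Etoh mice. Of 26 positive acute phase proteins 3 were lower in the first comparison (Serpina3n, Mt2 and Mt1), 5 in the next (Serpina3n, Itih4, Itih3, C3 and Hp) and 5 in the last (among them Itih4 and Saa4), with 0 higher in each by edgeR at an unadjusted p under 0.05, and DESeq2 called 0, 2 and 1 of them. Of 21 hepatokines, Lect2 (−0.30) and Inhbe (−0.74) were lower in induced than in ASAH− Etoh-Dox mice, Fst (−0.98) and Selenop (−0.22) were lower and Angptl6 (0.59) higher than in ASAH+ Etoh mice, and in the last comparison Angptl6 was higher (0.58) and Orm1 lower (−0.29). DESeq2 called Angptl6 in the last comparison only, and edgeR and limma-voom called 0 genes of these 3 lists.

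Other highly expressed genes were counted in the same way, with no test of the set. Of 119 genes with a mean of at least 1000 CPM, without the members and Asah1, 8 were lower and 1 higher than in ASAH− Etoh-Dox mice at an unadjusted p under 0.05, with a median log2 fold change of −0.06. Against ASAH+ Etoh mice 29 were lower and 5 higher, with a median of −0.12. Between ASAH− Etoh-Dox and ASAH+ Etoh mice 13 were lower and 6 higher, with a median of −0.05. Over all genes tested, 1.57%, 3.24% and 4.10% were lower and 1.29%, 4.04% and 5.08% higher in the 3 comparisons. Asah1 itself took 1.02% to 1.58% of the counts of induced mice, and leaving it out of the library totals left the log2 fold changes of the members within the SD between mice.

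**Figure D5:**
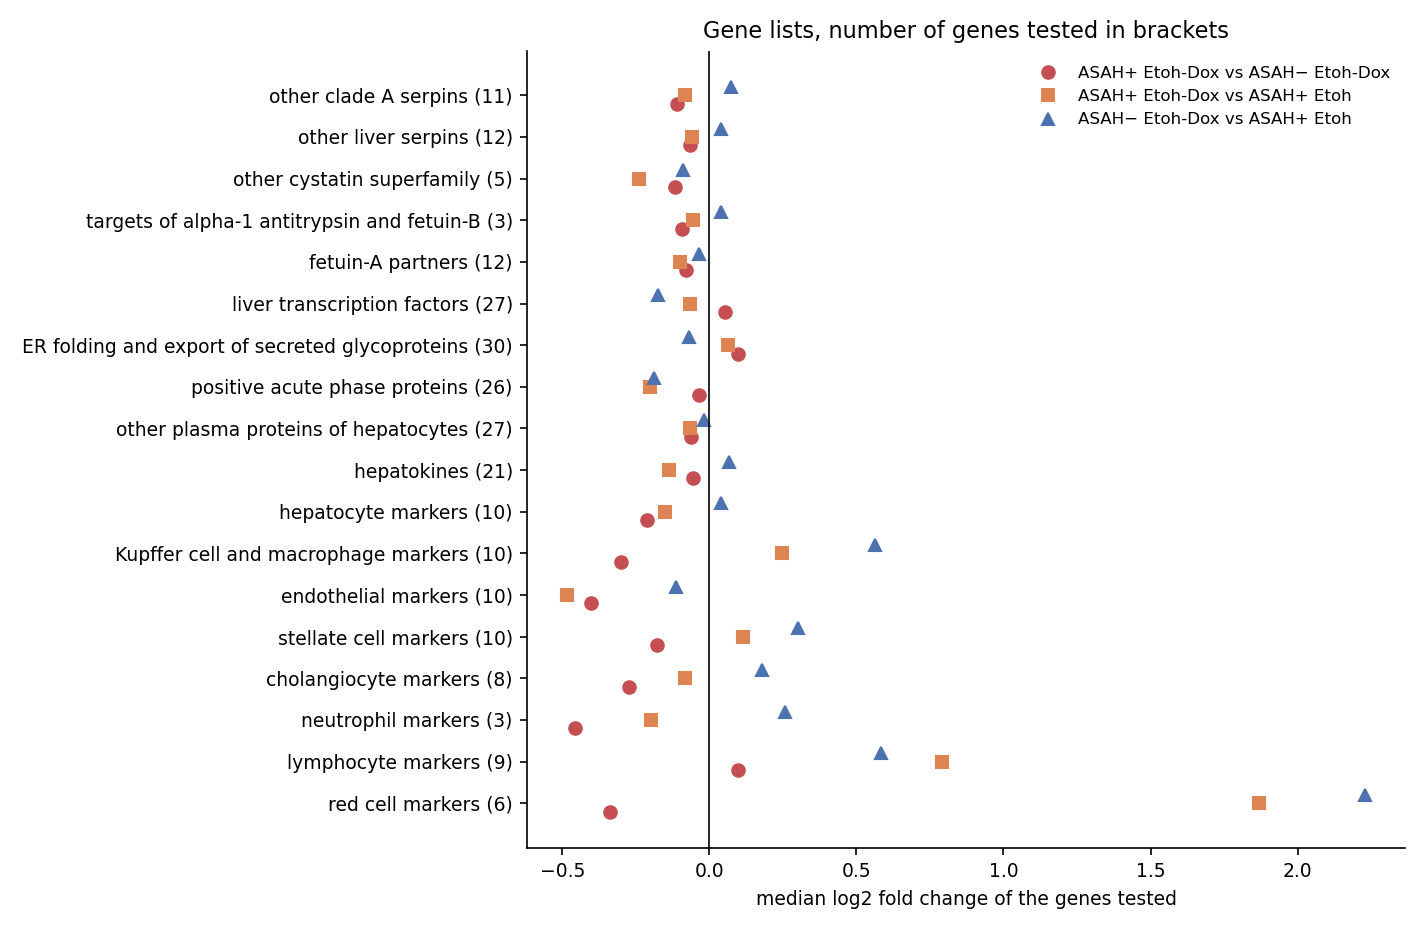
Median log2 fold change of the tested genes of each list (horizontal axis) in 3 comparisons, the first group named minus the other; the number of genes tested is in brackets. Among the cell markers, those of hepatocytes, endothelial cells, cholangiocytes and neutrophils have medians below 0 in both comparisons of induced mice. Red cell markers have the largest medians, 1.87 and 2.23, against ASAH+ Etoh mice.

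Markers of hepatocytes, the cells that make these proteins, were present in every mouse, and 0 of the 10 were at 0 in any. Marker levels are CPM of the plain library total, without the TMM factors used for the members. Their summed level was 131533, 121875, 142178 and 131900 CPM in the ASAH− Etoh-Dox mice. In the induced mice it was 95315, 122121, 125386, 120058 and 123218 CPM. In the ASAH+ Etoh mice it was 104880, 127733, 122964 and 130822 CPM. The groups overlapped, with the induced replicate 1, which also had the lowest Ahsg, lowest of all. In ASAH+ Etoh mice replicate 1 was likewise lowest in both. In ASAH− Etoh-Dox mice replicate 1 had the lowest Ahsg but replicate 2 the lowest sum.

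Alb was on average the most abundant of the hepatocyte markers, at 66193 to 108949 CPM, and made up most of each sum. Of the 10 markers, 1 (Apoa1) was lower in induced than in ASAH− Etoh-Dox mice and 2 (Cps1 and Ass1) lower than in ASAH+ Etoh mice at an unadjusted p under 0.05, with 0 higher by edgeR and list medians of −0.21 and −0.15. Apoa1 was higher in ASAH− Etoh-Dox than in ASAH+ Etoh mice. DESeq2 called 0, 1 (Cps1) and 1 (Apoa1) of them. The part of hepatocyte number or mass in the levels of the members was not tested.

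Of 10 endothelial markers, 6 were lower in induced than in ASAH− Etoh-Dox mice and 7 lower than in ASAH+ Etoh mice at an unadjusted p under 0.05 by edgeR, with medians of −0.40 and −0.48. Over all genes tested, 1.57% and 3.24% were lower at that threshold. At an adjusted p under 0.1, edgeR, DESeq2 and limma-voom called 0 of the 10 in each of the 3 comparisons. Their sum was 248, 208, 372 and 271 CPM in ASAH− Etoh-Dox, 224, 233, 176, 260.2 and 223 CPM in induced and 323, 230.4, 277 and 290.3 CPM in ASAH+ Etoh mice, so the groups overlapped. Fcgr2b was on average the most abundant, at 25.8 to 57.2 CPM, and 0 of the 10 were at 0 in any mouse. In the last comparison 0 of 10 passed an unadjusted p of 0.05 by edgeR. Their part in the results for the members was not tested.

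Red cell markers, 6 tested of 10, were higher in both Etoh-Dox groups than in ASAH+ Etoh mice in 6 of 6 cases, while 0 differed between the Etoh-Dox groups at an unadjusted p under 0.05 by edgeR or at an adjusted p by edgeR, DESeq2 or limma-voom. Their sum was 229.9, 745, 1694 and 216 CPM in ASAH− Etoh-Dox, 706, 254, 865, 363 and 644 CPM in induced and 136, 161, 168 and 187 CPM in ASAH+ Etoh mice. Hbb-bs was on average the most abundant, at 63.3 to 689 CPM, and up to 3 of the 9 in the table were at 0 in a mouse. DESeq2 called 3 of them in induced and 4 in ASAH− Etoh-Dox mice against ASAH+ Etoh mice. Over all genes tested, 4.04% and 5.08% were higher in these comparisons at an unadjusted p under 0.05 by edgeR. The part of blood or of Dox in the levels of the members was not tested.

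At an unadjusted p under 0.05 by edgeR, 6 of 10 Kupffer cell and macrophage markers were higher in ASAH− Etoh-Dox than in ASAH+ Etoh mice. In that comparison 0 of the 10 had a log2 fold change below 0, and 5.08% of all genes tested were higher at that threshold. The marker sums were 481, 478, 958 and 616 CPM against 478, 375, 402 and 424 CPM. In induced mice the sum was 673, 715, 343, 558 and 343 CPM, and 0 of 10 passed an unadjusted p of 0.05 by edgeR against either group, or an adjusted p by edgeR, DESeq2 or limma-voom. Cd5l was on average the most abundant, at 89.3 to 260.1 CPM, and 0 were at 0 in any mouse. Of 10 stellate cell markers, 4 were higher in ASAH− Etoh-Dox than in ASAH+ Etoh mice at an unadjusted p under 0.05 by edgeR. In that comparison 0 of the 10 had a log2 fold change below 0. In induced against ASAH− Etoh-Dox mice 2 (Reln and Ecm1) were lower at that threshold, and 10 of the 10 markers were below 0. Their sums were 438 to 531 CPM in ASAH− Etoh-Dox, 361 to 439 CPM in induced and 354 to 429 CPM in ASAH+ Etoh mice, with Dcn on average the most abundant at 112 to 168 CPM and 0 at 0 in any mouse. At an adjusted p under 0.1, edgeR, DESeq2 and limma-voom called 0 of the Kupffer and 0 of the stellate cell markers in each comparison.

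Of 8 tested cholangiocyte and 3 tested neutrophil markers 0 passed an unadjusted p of 0.05 by edgeR or an adjusted p by edgeR, DESeq2 or limma-voom in any comparison. Neutrophil markers summed to 1.94 to 5.70 CPM, with 1 to 6 of 10 at 0 in each mouse. Of 9 tested lymphocyte markers, 2 were higher in each Etoh-Dox group than in ASAH+ Etoh mice at an unadjusted p under 0.05 by edgeR. In both comparisons 0 of the 9 had a log2 fold change below 0, and the marker sums were 2.09 to 9.16 CPM. Over all lists, 233 genes were tested, and edgeR called 0 of them at an adjusted p under 0.1 in each comparison. At an unadjusted p under 0.05 there were 23, 37 and 35, beside 409, 1043 and 1314 of all 14317 genes tested. Of the 233, DESeq2 on all 13 mice called 1, 11 and 8 and limma-voom 0.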

How the data were processed

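Whole-liver RNA of 13 mice was sequenced in stranded mRNA libraries with single reads of 100 bases. Mapping by the authors used salmon against GENCODE M19 on GRCm38.p6, and tximport summed transcripts to genes. What they deposited are estimated counts as whole numbers, not scaled. Totals and gene names were checked, and 53355 of 53392 identifiers were found in GENCODE M21, which gave positions and transcripts.

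edgeR 4.0.16 (R 4.3.3) was fitted to all genes kept by its filter, with TMM, robust quasi-likelihood and 3 group means over 13 mice. P-values were Benjamini-Hochberg adjusted over all genes tested, with a threshold of 0.1. CPM were computed with TMM, and log2 CPM with a prior count of 2; sums and levels of marker genes are CPM of the plain library total, without TMM. Single genes were also tested by exact two-sided permutation of mice on mean log2 CPM. The Serpina1 counts were summed before the filter and fitted the same way. The fits were first run on simulated counts with known changes.

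The members and lists were chosen with earlier results of these data known. Genes named were the members, at most 3 per list, comparison and direction with the smallest p among those with an unadjusted p under 0.05, the 5 genes most correlated with Ahsg, Fetub and the sum, the genes of HNF4 and C/EBP, and Asah1. Other genes named in the text (Sod1, mt-Co2, mt-Co3, further list genes) were chosen after their values were seen. Promoters came from RefSeq on GRCm38.p6.

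Alternatives were DESeq2 1.42.0 on all mice or the groups compared alone, its size factors in edgeR, limma-voom (limma 3.58.1), edgeR on the groups compared alone, edgeR without its filter or with 10 counts required of each mouse, totals without Asah1 or without the 10 most counted genes, dispersion fitted without robustness, a replicate block, a covariate that was either 1 surrogate variable (sva 3.50.0) or Dbp over Arntl in log2, a threshold of 0.05, and leaving out mice singly. Human samples and other measurements of the study were not used here.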

Additional observations from a re-analysis of the deposited data

Results flagged for a closer look

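In groups of 4 or 5 mice the gap between the most extreme mouse and its neighbour was compared with the group's range, for 39 groups of member levels and shares. By chance about 1 in 20 groups stands out, and 3 did. Serpina1b in ASAH+ Etoh replicate 2, at 5974 CPM, was far below the other 3 mice. Serpina1e in ASAH− Etoh-Dox replicate 4, at 56.8 CPM, was far above the other 3, and so was its share of the Serpina1 counts in that mouse, at 0.291%. The cause was not tested.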

How the results depend on the processing

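The 14 described log2 fold changes of the members and the sum in comparisons of induced mice had 26 alternatives each, and all 364 values moved by less than the SD between mice. The mean shares were recomputed only by leaving out each mouse of their group, and all 65 values moved by less than the SD of the share between mice. Ahsg lay between −0.46 and −0.37 against ASAH− Etoh-Dox and between −0.29 and −0.21 against ASAH+ Etoh, and the sum between −0.21 and −0.17 and between −0.24 and −0.20. Serpina1e against ASAH+ Etoh changed sign in 1 of 26, without induced replicate 3. Even this counts as a move of less than the SD, so that measure is lenient for fits that left out 1 mouse. No tested member passed an adjusted p of 0.1 in any alternative: in ASAH− Etoh-Dox against ASAH+ Etoh, Fetub lay between 0.33 and 0.47, with adjusted p from 0.148 to 0.751. There Serpina1c, at 0.03, was at −0.03 without ASAH− replicate 1, at −0.0405 without ASAH− replicate 4, at 0.105 without ASAH− replicate 3 and at −0.03 without ASAH+ Etoh replicate 4.

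Counts of genes called moved more. For induced against ASAH− Etoh-Dox (2 genes) DESeq2 on all 13 mice gave 12, DESeq2 on the groups compared alone 11 and edgeR on the groups compared alone 1. For induced against ASAH+ Etoh (2 genes) they were 98 and 114 by DESeq2, and 4 with no count filter. For ASAH− Etoh-Dox against ASAH+ Etoh (2 genes) they were 149 and 168 by DESeq2, 0 by edgeR on the groups compared alone, 1 by limma-voom, 5 with 1 surrogate variable, 0 with the ratio of Dbp to Arntl and 0 at an adjusted p under 0.05. Leaving out 1 mouse gave 1 to 2, 2 to 8 and 0 to 2 genes; 8 came without ASAH+ Etoh replicate 2. The cause was not tested.

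With the replicate block the counts were 1, 2 and 0. Mice with the same number had correlations of −0.26 to 0.19 between their deviations from the group means, so the numbers do not pair them, and no member was called. Serpina1e had the fewest counts of the members, 294 to 1591 per mouse, and the part of depth in its values was not tested. Groups of 4 and 5 mice limit what the exact tests can show.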
